A study of Mus musculus with 9 samples.

Results

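The miRNA response of cultured mouse hippocampal neurons to N-methyl-D-aspartate (NMDA) was read from 6 one-colour miRNA arrays out of 9 in the series. The members are the 3 arrays labelled NMDA and the 3 labelled control, and on each of them all 611 mouse miRNAs among the 650 miRNAs of the array design. The neurons were prepared from C57BL/6 mice at postnatal day 1 and were used after 10 days in culture. Control cultures were left untreated. NMDA cultures received 20 µM NMDA and are labelled with a treatment of 4 h. The study's methods describe a bath application of 10 min followed by washing, and they give a range of doses that reaches above the labelled one. Its text names a higher dose, together with the co-agonist glycine, so the dose on these arrays is not settled and the labelled one is printed here. The methods state that the replicates came from independent cell preparations. Replicates 1 and 2 of both groups were on slide 1 and replicate 3 of both on slide 2, which was read with a later version of the scanner software. The third condition of the series, bicuculline for 4 h, is used here only where it bears on an NMDA result. The comparison asks which miRNAs change, and which do not, when all NMDA receptors of the culture are opened at once. Because each culture is measured as a bulk sample, fewer cells of a type and less RNA per cell cannot be told apart.

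miRNAs are short RNAs cut from hairpin precursors, first by Drosha in the nucleus and then by Dicer in the cytoplasm. Either arm of a hairpin (5p or 3p, or an unmarked name and its star) can be kept, and the bases at its 5′ end, called the seed, select the mRNAs that are repressed. NMDA receptors are ion channels that open on binding glutamate and let calcium into the cell. NMDA added to the medium reaches receptors over the full surface of a neuron and not only those facing a release site. In brain, miR-124, miR-9, miR-128 and the let-7 family are abundant, and miR-132 and miR-212 are known targets of activity-dependent transcription.

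Of the 15 miRNAs that passed the test, 11 matched a mature sequence of RefSeq (GRCm38.p6) by name, miR-466i and miR-494 under their names with the arm (3p). They are shown because they carry the response, 5′ to 3′ with the seed (bases 2 to 8) in capitals.
miR-574-5p: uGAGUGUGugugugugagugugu
miR-1187: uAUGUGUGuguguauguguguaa
miR-467f: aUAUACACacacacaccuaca
miR-466i: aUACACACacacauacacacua
miR-671-5p: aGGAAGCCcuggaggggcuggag
miR-705: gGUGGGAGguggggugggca
miR-1892: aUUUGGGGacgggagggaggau
miR-1895: cCCCCGAGgaggacgaggagga
miR-1904: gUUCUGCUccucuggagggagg
miR-690: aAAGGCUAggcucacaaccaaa
miR-494: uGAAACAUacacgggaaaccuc

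No pair of these 11 shares a seed. miR-574-5p and miR-1187 hold runs of 13 and 11 bases in which U and G alternate, and miR-467f and miR-466i hold runs of 12 and 11 bases in which C and A alternate. These miRNAs entered the test only through the NMDA arrays, so the runs are described and not read as a result about the raised miRNAs. miR-671-5p, miR-705 and miR-1892, which entered the test in the same way, are at least 50% G. miR-690 and miR-494 are each 18.2% G and have neither feature. miR-689, miR-714, miR-1897-5p and miR-466f-3p are without a sequence here. Because 73.3% of the 15 have one, under the 80% needed, neither base composition nor runs were compared between the raised miRNAs and the rest. miR-574-5p lies at chr5:64970328-64970350 on the + strand and miR-671-5p at chr5:24592132-24592154 on the + strand. miR-494 lies at chr12:109715367-109715388 on the + strand, within the imprinted Dlk1-Dio3 cluster. miR-466i lies at chr13:17747552-17747573 on the + strand and miR-467f at chr11:69635419-69635439 on the - strand.

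For contrast, 3 let-7 members among the miRNAs with the brightest probes, which did not pass the test, have 1 seed between them (the let-7a, let-7b and let-7c arms are the 5p arms of RefSeq).
let-7a: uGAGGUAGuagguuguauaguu
let-7b: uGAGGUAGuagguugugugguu
let-7c: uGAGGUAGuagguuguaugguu

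Signals are given as a percent of each array's scale, taken as the 75th percentile of the 265 probes that rose well above background in the whole series of 9. A level is log2 of that signal as a share of the scale, with signals under 7.94% set to this floor, so changes of dim miRNAs are understated. A signal depends on the probe as well as on the amount of its miRNA, so each miRNA was compared only with itself. A control array had between 162 and 204 mouse miRNAs well above background, and an NMDA array between 181 and 220. The mean number was 202.0 ± 19.7 (SD, n = 3) for NMDA and 178 ± 22.5 (SD, n = 3) for control, with an unpaired two-sided exact permutation p of 0.2, where 0.1 is the smallest that 3 arrays against 3 allow. The number was higher after NMDA in 3 of 3 same-numbered pairs, for which a paired exact permutation p cannot fall below the 0.25 found. Over the 157 miRNAs detected on all 6 arrays, levels correlated across miRNAs at 0.989 to 0.995 within a group and at 0.966 to 0.985 between groups. Precision is set by having 3 arrays in each group. All 6 neuronal markers (miR-124, miR-9, miR-128, miR-137, miR-138 and miR-218) were well above background on all 6 arrays. Their summed signal lay between 3588% and 3642% of the scale on control arrays and between 3333% and 3591% on NMDA arrays. Of 5 immune-cell markers 5 were above background on no array, as were 3 of 3 red blood cell markers and miR-122 of liver. Of 4 vascular markers, 3 were on none, and miR-126-3p was well above background on 1 control and 2 NMDA arrays. Glial markers were present: miR-21 and miR-146a together gave 194% to 239% on control and 201% to 222% on NMDA arrays, and miR-338-3p of oligodendrocytes was on all 6 arrays while miR-219 was on none. Of 4 muscle markers, miR-1 was well above background on all 6 arrays (log2 change -0.03), miR-133b on 1 NMDA array only, and miR-133a and miR-206 on none.

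A miRNA entered the test where all 3 arrays of either group showed it well above background. This held for 181 miRNAs, of which 157 were so on all 6 arrays, 179 on all 3 NMDA arrays and 159 on all 3 control arrays. Another 51 were above background on some arrays only, and 379 were so on none of the 6. With limma, 15 of the 181 (8.29%) passed an adjusted p of 0.05, and all 15 were higher after NMDA. Of the 159 detected on all 3 control arrays it called 3 (1.89%). The other 12 calls came from 22 miRNAs that entered the test only through the NMDA arrays, a filter that favours rises. It does not force them: of the 22, 13 were raised by more than 20% and 9 changed by less, the lowest by -0.12. limma called 0 lower, against 3 lower and 17 higher at an unadjusted p under 0.05. By size, 18 (9.94%) were raised by more than 20% and 2 (1.1%) were lowered by more than 20%, and the other 161 lay between. All 3 NMDA arrays lay above all 3 control arrays for 17 miRNAs (9.39%) and below all 3 for 10 (5.52%). The median log2 change of all 181 was -0.01, with quartiles at -0.08 and 0.05. The direction of the small changes depends on the scale of the arrays: scaling to all probes moved this median to -0.43, quantile normalization to -0.14 and normexp to -0.10. limma then called 14 higher and 4 lower, 14 higher and 12 lower, and 14 higher and 13 lower. Scaling to all probes shifts all levels of an array above the floor alike, so relative to its own median its counts were nearly fixed. They were 18 raised and 2 lowered by more than 20%, the numbers of the scale used here. Relative to their own medians, quantile normalization gave 18 and 7, normexp 17 and 1, and the scanner software's total signal per miRNA 18 and 13.

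**Figure D1:**
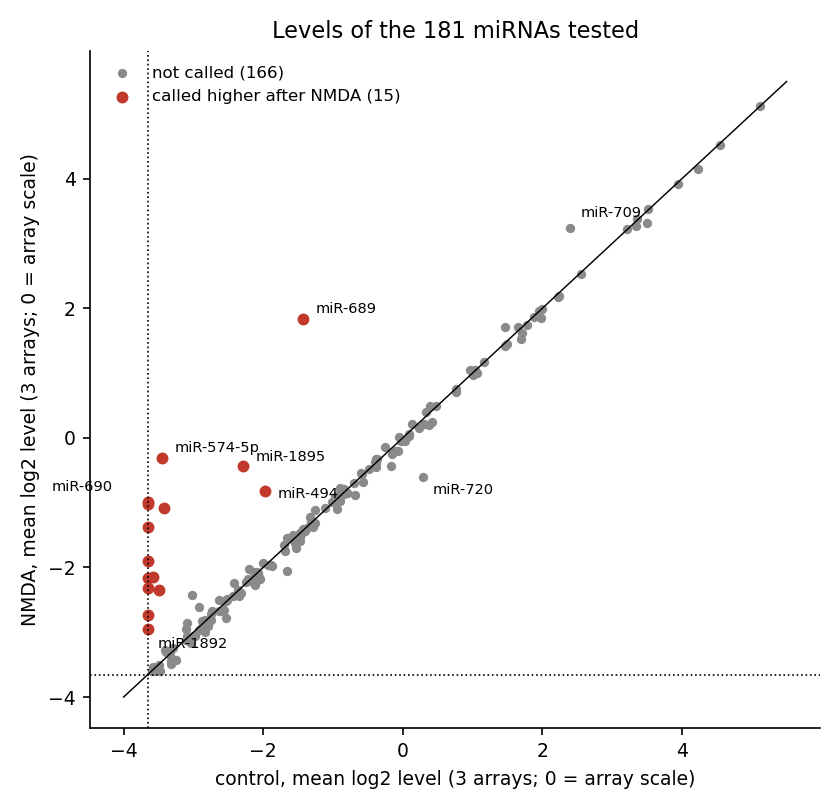
Mean log2 level of each of the 181 miRNAs tested on the 3 NMDA arrays (vertical) against the 3 control arrays (horizontal), with 0 at the array scale, the floor as dotted lines and equal levels as the diagonal. The 15 miRNAs called by limma lie above the diagonal, 8 of them on the control floor, while most others lie along it from the floor to the brightest probes.

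Only 3 of the 15 were well above background on all 3 control arrays, so that both sides of their change were measured. miR-689, a small RNA whose status as a miRNA is debated, gave control signals of 23.0%, 55.5% and 40.4% of the scale and NMDA signals of 270.6%, 424% and 391%. The groups were far apart, with the lowest NMDA array above the highest control array by several fold. Its log2 change was 3.25 (SE 0.32, limma adjusted p = 3.10e-04), a 9.54-fold rise, and was 2.39 in the authors' processed log2 values. miR-1895 gave 17.3%, 19.3% and 25.5% on the control arrays and 60.3%, 77.0% and 88.4% on the NMDA arrays. Its log2 change was 1.86 (SE 0.18, limma adjusted p = 3.10e-04), and the groups did not overlap. miR-494, a member of the imprinted Dlk1-Dio3 cluster, gave 23.2%, 23.3% and 30.2% against 54.8%, 56.4% and 58.3%. The 3 NMDA values of miR-494 lay closest together of these, and its log2 change was 1.15 (SE 0.12, limma adjusted p = 3.30e-04).

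Another 7 of the 15 were well above background on 1 control array, so their folds rest in part on the floor, and they entered the test only through the NMDA arrays. miR-574-5p, from an intron of Fam114a1, gave 6.15%, 7.36% and 12.2% on control arrays and 60.4%, 91.8% and 93.1% on NMDA arrays. The third control array was the one above background, and even it lay far under all NMDA arrays. The log2 change was 3.13 (SE 0.23, limma adjusted p = 8.50e-05). miR-671-5p gave 8.68%, 6.81% and 11.7% against 39.1%, 52.4% and 50.6%, a log2 change of 2.33 (SE 0.17, limma adjusted p = 8.50e-05). The changes of miR-574-5p and miR-671-5p were 1.25 and 0.79 in the authors' processed log2 values. With the total signal per miRNA they were 0.96 and 0.56, each with a limma adjusted p of 0.99. miR-690 gave 4.48%, 4.09% and 7.92% against 45.1%, 44.9% and 63.8%, and its levels did not overlap between groups. miR-1187 gave 3.87%, 3.79% and 5.02% against 36.3%, 58.4% and 57.4%, again with no overlap. All 3 control levels of both sat at the floor, which sets their log2 changes of 2.67 (SE 0.14, limma adjusted p = 2.94e-05) and 2.64 (SE 0.18, limma adjusted p = 8.50e-05) and leaves no control spread in their tests. With a floor at 0.5 of this one the changes were 3.27 and 3.53. miR-1904 gave 6.98%, 7.31% and 9.24% against 18.7%, 23.4% and 26.5%, with a log2 change of 1.44 (SE 0.14). miR-1897-5p gave 4.74%, 6.61% and 11.3% against 15.6%, 20.1% and 24.4%, with a log2 change of 1.14 (SE 0.20, limma adjusted p = 0.0066). In miR-1897-5p the gap between the groups was narrow, from 11.3% to 15.6%. miR-1892 gave 5.92%, 6.29% and 7.34% against 12.4%, 13.3% and 13.3%, and all 3 control levels were at the floor. Its log2 change of 0.71 (SE 0.07, limma adjusted p = 3.73e-04) was the smallest of the 15. As for miR-690 and miR-1187, this test holds no control spread. In the authors' processed log2 values the change of miR-1892 was 0.18 (limma adjusted p = 0.076).

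The remaining 5 were well above background on all NMDA arrays and on no control array, so only a lower bound of the fold can be given. For the bound, each control array was given whichever was higher, the lowest signal it could detect or what the probe showed there, and the mean NMDA level was set against these. miR-467f gave 28.0%, 41.6% and 49.1% on the NMDA arrays and at most 6.09% on a control array, and was at least 5.62-fold higher. miR-714 gave 17.9%, 27.6% and 38.3% against at most 4.53%, and was at least 3.88-fold higher. These had the largest bounds, and every NMDA array was above the floor. miR-466f-3p gave 16.2%, 25.3% and 27.6% against at most 3.26%, at least 3.27-fold higher. miR-466i gave 15.7%, 21.6% and 24.1% against at most 4.41%, at least 2.94-fold higher. miR-705 gave 11.8%, 18.3% and 15.8% against at most 2.27%, at least 2.19-fold higher, the smallest bound. All control levels of the 5 were at the floor and they entered the test only through the NMDA arrays, so their p-values carry no control spread and are not given. NMDA replicate 1 was the lowest NMDA array for all 5.

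**Figure D2:**
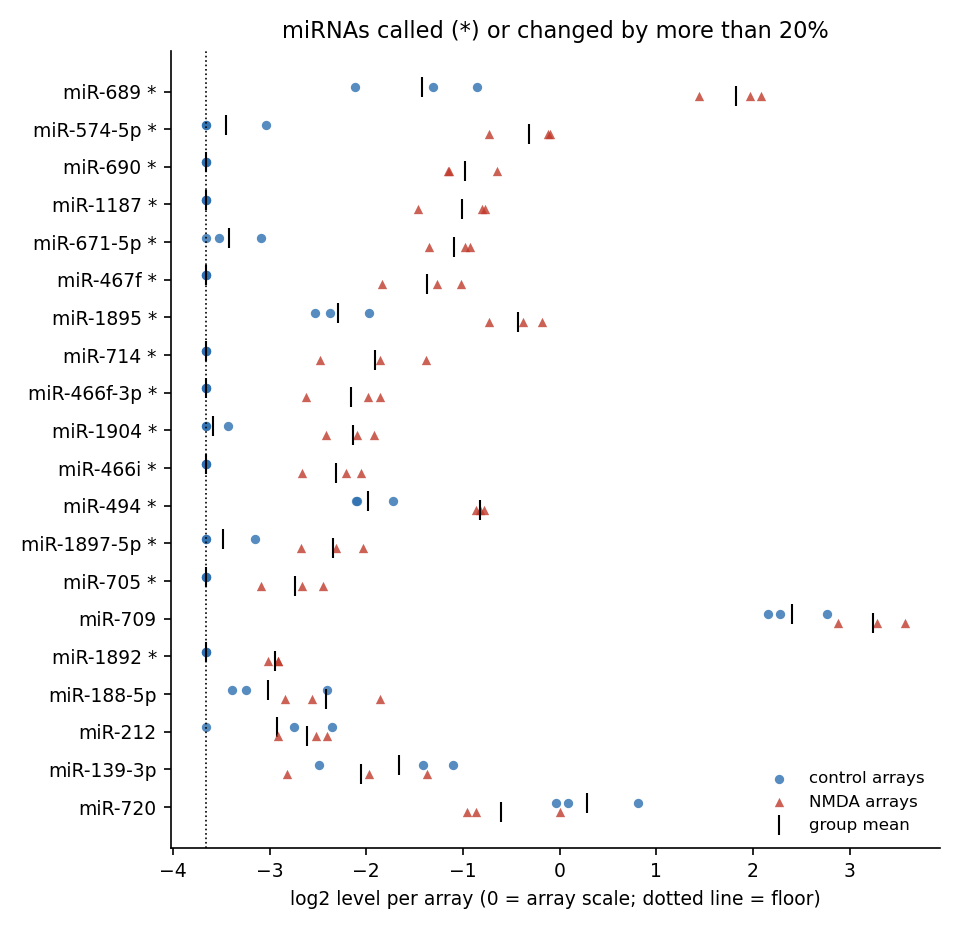
log2 level on each of the 3 control arrays (circles) and 3 NMDA arrays (triangles) for the 15 miRNAs called by limma (asterisk) and the 5 others that changed by more than 20%, with the group mean as a bar and the floor as a dotted line. In the 15 every triangle lies to the right of every circle, and for 8 of them all circles sit on the floor; in miR-188-5p, miR-212, miR-139-3p and miR-720 the groups overlap.

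Most miRNAs have more than 1 probe, and the values above come from the brightest. The 15 have 38 probes, of which 23 are not the brightest. Of these 23, 12 were well above background on all 3 NMDA arrays, and they belonged to 10 of the 15 miRNAs. As 9 of the 12 were above background on at most 1 control array, the choice of probes high on NMDA arrays fixed much of their direction. The other 3 probes, of miR-689, miR-1895 and miR-494, were above background on 2 or 3 control arrays and changed by 3.93, 1.94 and 1.17. The log2 changes of all 12 lay between 0.37, for the second probe of miR-1892, and 3.93. The other probes of miR-466f-3p, miR-466i, miR-705, miR-714 and miR-1904 were dimmer and above background on at most 2 NMDA arrays. The second probes of miR-714 and miR-1904 still changed by 0.68 and 0.57 with no overlap between groups, and those of miR-466f-3p, miR-466i and miR-705 by 0.41, 0.34 and 0.15. With the mean of all probes in place of the brightest, limma called 10 higher and 2 lower, and all but miR-1904 of these 5, together with miR-1897-5p, were lost. With the scanner software's total signal per miRNA it called 5, and among the 157 detected on all 6 arrays 3 (miR-689, miR-1895 and miR-494).

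Both slides held both groups, 2 arrays each on slide 1 and 1 each on slide 2, so the size of a change can be given within each. As the groups of the 15 do not overlap, their direction within a slide was already fixed. The log2 change within slide 1 and within slide 2 was 3.25 and 3.27 for miR-689, 1.90 and 1.79 for miR-1895, and 1.26 and 0.95 for miR-494. The position on the slide could not be separated in this way. The headers place all 3 control arrays in row 1, columns 1 and 2, and all 3 NMDA arrays in row 2, columns 3 and 4. Neither the row nor the column can be told apart from the treatment among these 6 arrays. No bicuculline array shared both the row and the column of an NMDA array. Of the bicuculline arrays 2 lay in row 2, both in column 1. For all 15 miRNAs both gave a lower signal than every NMDA array, which does not bear on the column. miR-689, for example, reached at most 34.3% on these 2 arrays, against at least 270.6% on the NMDA arrays, and miR-1895 at most 25.8% against at least 60.3%. Negative control spots averaged 0.083% ± 0.44 of the scale on NMDA and 0.55% ± 0.56 on control arrays (SD, n = 3), and were lower after NMDA in 3 of 3 same-numbered pairs (two-sided exact permutation tests, p = 0.3 unpaired and p = 0.25 paired).

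A further 5 miRNAs changed by more than 20% without passing the test. miR-709, a miRNA described in the nucleus, gave 445%, 485% and 680.04% of the scale on control arrays and 735%, 971% and 1188% on NMDA arrays. The groups did not overlap, but the third array was the highest of its group in both. Its log2 change was 0.84 (SE 0.21, limma adjusted p = 0.056). With the replicate number as a block the limma adjusted p of miR-709 was 0.0041 and with the slide as a block 0.0092, at the same change, and it was 0.015 without control replicate 3 and 0.034 without NMDA replicate 1. miR-188-5p, from an intron of Clcn5, gave 10.5%, 9.56% and 18.8% against 13.96%, 16.9% and 27.5%, and the groups overlapped. Its log2 change was 0.59 (SE 0.32, limma adjusted p = 0.71, and 0.036 with the replicate block). miR-212 gave 7.59%, 19.6% and 14.9% against 17.5%, 18.9% and 13.3%. Its log2 change of 0.31 (SE 0.31, limma adjusted p = 0.99) rested on control replicate 1, the control array on which it was not well above background, and was -0.06 without it.

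The 2 miRNAs lowered by more than 20% were miR-720 and miR-139-3p. miR-720, since traced to a fragment of a transfer RNA, gave 106%, 97.5% and 175% of the scale on control arrays and 99.9%, 55.1% and 51.3% on NMDA arrays. NMDA replicate 1 lay within the control range and the other two lay below it. The log2 change was -0.89 (SE 0.30), with a 95% interval from -1.61 to -0.18 and a limma adjusted p of 0.22. Slide 1 alone gave -0.46 and slide 2 alone -1.77, and without NMDA replicate 1 it was -1.20 (limma adjusted p = 0.046). Its second probe changed by -0.88. miR-139-3p, from an intron of Pde2a, gave 46.7%, 37.6% and 17.8% against 25.4%, 38.5% and 14.2%, a log2 change of -0.39 (SE 0.44, limma adjusted p = 0.99). Here the spread within each group was larger than the difference between them. Beside miR-720, only miR-433 and miR-340-3p were lower at an unadjusted p under 0.05, by -0.26 (SE 0.09) and -0.25 (SE 0.11) on the log2 scale.

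The majority that did not pass the test can be bounded. Of the 181 changes, 156 (86.2%) had a 95% interval inside 1.5-fold in either direction, 162 inside 2-fold and 51 inside 1.2-fold. The median distance from a change to the end of its interval was 0.24 on the log2 scale, or 1.18-fold. As the intervals are unadjusted, a change of 20% that clears 0 at this distance need not pass the adjusted test. miR-433, at -0.26, had a limma adjusted p of 0.25. Of the 166 not called, 156 lay inside 1.5-fold, and 10 did not. The 10 were miR-709, miR-188-5p, miR-212, miR-720 and miR-139-3p, above, and miR-1224, miR-135a, miR-301a, miR-337-3p and miR-449a, named after their values were seen. For these 10 the data do not exclude a change of more than 1.5-fold. The count inside 1.5-fold depends on the scale and the summary of a miRNA, with 1 under scaling to all probes and 0 with the total signal per miRNA. The narrowest intervals were those of miR-26a, miR-195 and miR-30a. miR-195, of the miR-15/16 seed family, averaged 37.3% ± 0.61 (SD, n = 3) of the scale in control and 37.7% ± 1.11 in NMDA cultures, with an interval from -0.16 to 0.19 on the log2 scale. miR-26a, for which all 3 NMDA arrays lay below all 3 control arrays, had a log2 change of -0.16 with an interval from -0.33 to 0.01.

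**Figure D3:**
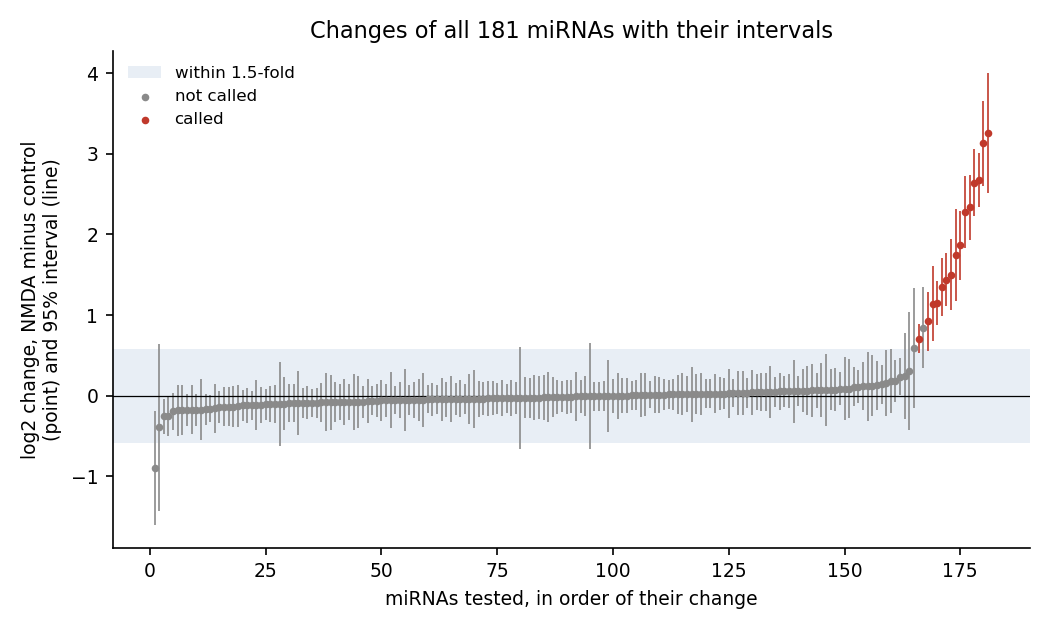
log2 change (NMDA minus control) of each of the 181 miRNAs tested, in order, with its 95% interval as a line and the band of 1.5-fold shaded. The intervals of 156 miRNAs lie inside the band, and the 15 called by limma rise from 0.71 to 3.25 at the right end.

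The brightest probes belonged to this majority. miR-125b-5p, abundant in neurons, averaged 3483% ± 119 (SD, n = 3) of the scale in control and 3498% ± 319 in NMDA cultures, a log2 change of 0.00 (interval -0.21 to 0.22). The log2 changes of let-7c, let-7a, let-7f and let-7b were -0.03, -0.08, -0.03 and 0.02, with standard errors between 0.08 and 0.10. miR-124, which favours the neuronal state, gave 915%, 929% and 949.8% on control arrays and 975%, 943% and 886% on NMDA arrays, fully overlapping. Its log2 change was 0.00 (interval -0.18 to 0.18). miR-9, which acts in neural progenitors and neurons, gave 1233%, 1175% and 988% against 1119%, 1132% and 792%, with the third array the lowest of each group. Its log2 change was -0.17 (SE 0.16, limma adjusted p = 0.99).

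Families and clusters known in neurons held none of the 15. In the 9 lists of neuron-enriched miRNAs and of conserved families and clusters, 61 of 108 members on the array were tested. Of these, 0 were called and 0 changed by more than 20%, against 8.29% called and 9.94% raised over all 181. However, 57 of the 61 were well above background on all 6 arrays. Over the 157 miRNAs so detected 1.91% were called and 3.18% raised, and 0 of 61 is near that share. Their log2 changes lay between -0.17, for miR-30c, and 0.18, for miR-181c, with a median of -0.01, the median of all 181, and 60 of the 61 intervals were inside 1.5-fold. The let-7 family, which restrains growth and stemness, had 9 of 16 tested, all between -0.08 and 0.02. The miR-17-92 and miR-106b-25 clusters, which drive proliferation, had 7 of 20 tested, between -0.04 and 0.04. The miR-15/16 family with miR-103 and miR-107 had 7 of 10 tested, between -0.04 and 0.02, and the miR-125 and miR-99/100 families 5 of 9, between -0.05 and 0.07. The miR-29 and miR-30 families had 10 of 16 tested, between -0.17 and 0.06, with miR-30c and miR-30d the lowest. The miR-23/24/27 clusters had 5 of 9 tested, between -0.08 and 0.07, and the miR-181 family 5 of 6, between -0.09 and 0.18. The miR-34 family, targets of p53, had 3 of 8 tested, with miR-34a at 0.12 (SE 0.18) and miR-34c and miR-449a at 0.05 and -0.01. Of the neuron-enriched list 10 of 14 were tested, with miR-9 the lowest at -0.17 and miR-153 the highest at 0.15 (SE 0.17).

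Of the activity-linked pair, miR-132 gave 108%, 155% and 137% of the scale on control arrays and 130.3%, 165% and 128% on NMDA arrays, a log2 change of 0.09 (SE 0.16), and miR-212 is given above. Of 14 glial and immune-cell miRNAs 4 were tested, and the log2 changes of miR-21 and miR-146a, both linked to activated glia, were -0.06 (SE 0.11) and 0.12 (SE 0.16). Of 27 miRNAs of muscle, vessels, blood, liver and epithelia 1 was tested, miR-1, and of 14 miR-290 to miR-295 members of embryonic stem cells 0.

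Most of the 15 carry names of 3 groups, whose counts stand against 8.29% called over all 181. Of the 39 miRNAs of the miR-297, miR-466, miR-467 and miR-669 type, repeat-derived families named for a cluster in an intron of Sfmbt2, 3 were tested and all 3 were called (miR-467f, miR-466f-3p and miR-466i). These 3 passed the filter only through the NMDA arrays, which favours rises, and 32 of the 39 were above background on no array of the 6. Of the 44 miRNAs named from miR-680 to miR-721, 6 were tested, of which 4 were called higher (miR-689, miR-690, miR-705 and miR-714), while miR-709 was at 0.84 and miR-720 at -0.89 and neither passed. Of the 32 with names from miR-1000 upward, 6 were tested and 5 called higher (miR-1187, miR-1892, miR-1895, miR-1897-5p and miR-1904), with miR-1224 at 0.24 (SE 0.23). Together the 3 groups gave 12 of the 15 calls from 15 tested members. As 10 of those 12 entered the test through the NMDA arrays alone, a filter that favours rises, the share is not read as a result about the groups. The members on all 3 control arrays were miR-689 and miR-1895, which were called, and miR-709, miR-720 and miR-1224, which were not. The imprinted Dlk1-Dio3 locus, a large cluster of miRNA genes, gave 1 call, miR-494, from 44 tested of 74. Its other 43 members lay between -0.26, for miR-433, and 0.24, for miR-770-3p. miR-574-5p and miR-671-5p belonged to no list, where 52 miRNAs were tested with a median of -0.05.

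**Figure D4:**
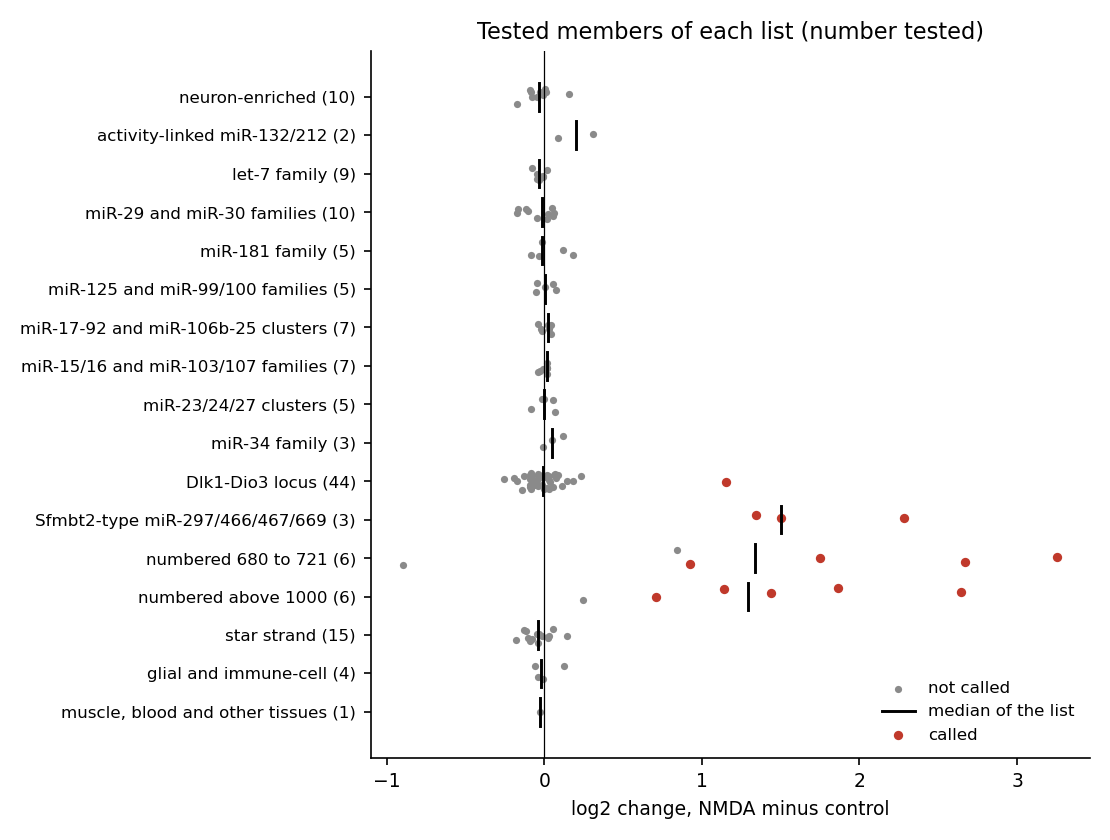
log2 change (NMDA minus control) of the tested members of each list, 1 point a miRNA, with called miRNAs in red and the median of the list as a bar. The lists of known families lie around 0, 1 of 44 Dlk1-Dio3 members stands apart at 1.15, and the high members of the 3 lists of names mostly entered the test only through the NMDA arrays.

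Changes were also read by signal class. The 181 miRNAs were divided by their mean level over the 6 arrays into 4 classes of 45 or 46. From the dimmest class to the brightest, limma called 7, 5, 2 and 1, but the 12 in the dimmer classes all entered the test only through the NMDA arrays. Among miRNAs on all 3 control arrays the calls were 0, 0, 2 and 1. The medians of all changes were -0.01, -0.01, 0.00 and -0.03. The brightest class, with mean signals between 99.5% and 3486% of the scale, held miR-689 as its only call and 42 of 45 intervals inside 1.5-fold. The dimmest class, between 8.26% and 16.03%, had 29 of its 46 miRNAs on all 3 control arrays. NMDA arrays enter these classes, and the rise itself moves a miRNA up. With the classes set by the bicuculline arrays in place of these 6, the 15 calls fell as 12, 3, 0 and 0 from the dimmest class to the brightest, and the 12 were again those that the filter took in through the NMDA arrays. The median standard error was 0.12 in the dimmest class and 0.10 in each of the others. All 3 control levels were at the floor for 5 of the 46 miRNAs of the dimmest class and 3 of the 45 of the next. The floor removes spread there, so these errors do not show that dim miRNAs are measured as precisely.

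Arms of 1 hairpin were compared where both were tested. The array holds 167 arm pairs by name, of which 21 had both arms tested, 61 had 1 and 85 had none. The difference between the changes of the 2 arms passed an adjusted p of 0.05 in 0 of the 21 pairs (0.0%; limma, 1 at an unadjusted p under 0.05), and 16 of the 21 intervals lay inside 1.5-fold. The largest difference was that of miR-433 and miR-433*, whose log2 changes were -0.26 and 0.02 (difference -0.28, SE 0.11, limma adjusted p = 0.78). miR-433 averaged 89.1% ± 8.24 (SD, n = 3) of the scale in control and 74.4% ± 2.29 in NMDA cultures, and miR-433* 13.8% ± 0.66 and 14.1% ± 1.86. The next were miR-139-5p and miR-139-3p, at -0.12 and -0.39, and miR-337-5p and miR-337-3p, at -0.05 and 0.18, with standard errors of the difference of 0.49 and 0.29. Star-strand miRNAs as a list had 15 of 115 tested and 93 above background on no array, and their log2 changes lay between -0.18, for miR-674*, and 0.14, for miR-136*. miR-9*, with the brightest probe of them, was at -0.08 (SE 0.09).

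**Figure D5:**
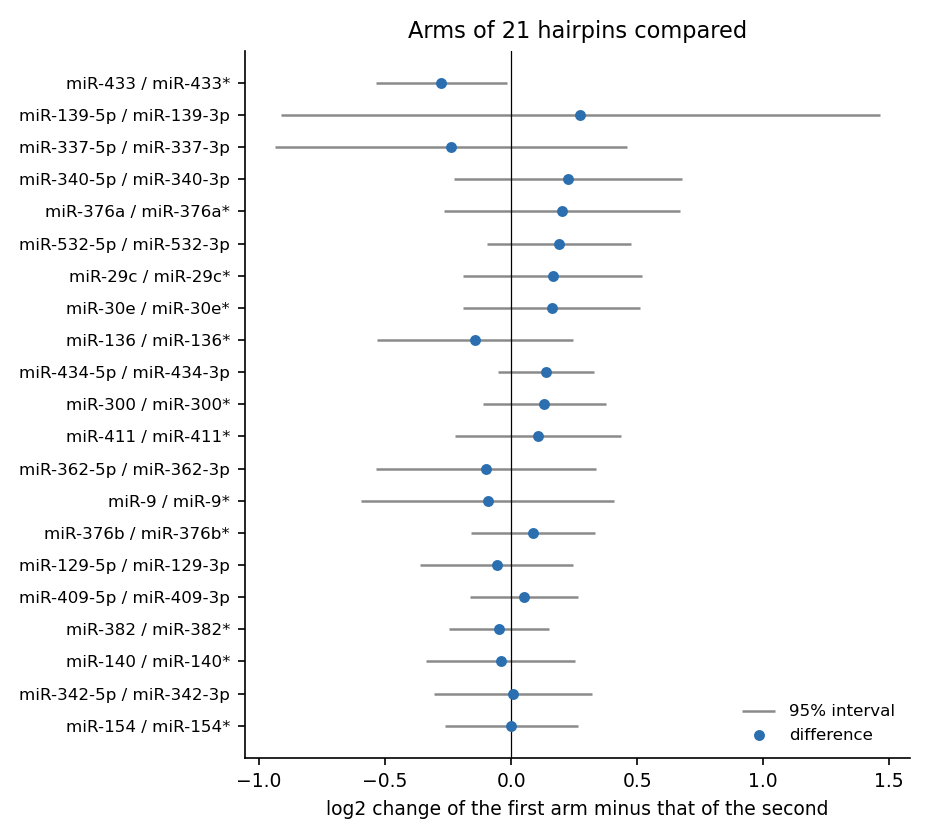
Difference between the log2 changes of the 2 arms of each of 21 hairpins (first arm minus second), with its 95% interval. All differences lie between -0.28 and 0.27, and 1 interval, that of miR-433 and miR-433*, does not include 0 before adjustment.

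None of the 21 pairs included a called miRNA. Of the 15, 4 have a partner arm on the array, and all 4 partners were above background on no array of the 6. miR-574-3p gave signals of 1.79%, 3.51% and 5.08% of the scale on the NMDA arrays, all under the floor. miR-671-3p lay between -1.48% and -0.18% on the NMDA arrays, and the highest NMDA signals of miR-1897-3p and miR-466f-5p were 4.15% and 1.29%. For these partners a change under the floor was not detectable.

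Beyond the 181, detection itself leaned to the NMDA arrays. The lowest signal marked well above background differed by array, at 8.37%, 8.06% and 4.80% of the scale on control and 8.40%, 6.68% and 5.14% on NMDA arrays. How far these limits account for the lean was not tested. Of the 51 miRNAs above background on some arrays only, 22 were so on NMDA arrays alone, 9 on control arrays alone and 20 on both. On 2 NMDA arrays and no control array there were 11, and on 2 control arrays and no NMDA array 0. The 11, picked after seeing their values, were miR-1894-3p, miR-1906, miR-210, miR-466g, miR-483, miR-539, miR-669f, miR-669n, miR-685, miR-706 and miR-712. miR-706, for example, gave 7.93%, 11.2% and 15.4% of the scale on NMDA arrays and at most 1.503% on a control array. miR-1894-3p gave 7.23%, 11.0% and 12.3% against at most 2.14%. In others the groups overlapped: miR-539 gave 5.41%, 7.03% and 7.55% on NMDA and 7.20%, 6.67% and 4.91% on control arrays. miR-210 gave 8.70%, 10.9% and 0.65% against 8.24%, 6.98% and 0.25%. No bound of the fold is given for the 11, since the NMDA level itself was in part at the floor. In 10 of the 11 NMDA replicate 1 was the array not above background, and for miR-210 it was replicate 3. Among tested miRNAs the same lean appeared, with 22 above background on all NMDA arrays and fewer control arrays and 2 the other way. The number above background per array overlapped between the groups and was higher after NMDA in each same-numbered pair, as given above, and control replicate 3 (204) and NMDA replicate 3 (220), both on slide 2, each had the most of their group.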

How the data were processed

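Small RNA signals were analysed from 6 Agilent one-colour mouse miRNA arrays. The files deposited by the authors hold spot intensity values from Agilent Feature Extraction (10.7.1.1 on slide 1, 10.7.3.1 on slide 2), background-subtracted and detrended within an array but left unscaled across arrays. The authors also deposited processed log2 values whose normalization is not given in the sources used here. Outlier-flagged spots (2109 on the 6 arrays) and control spots were left out. Detection of a probe (well above background) required the software's mark on 50% or more of its spots. Signals were scaled to the 75th percentile of 265 probes, floored at 7.94% and put on the log2 scale, with the brightest probe standing for a miRNA. No spot was saturated. limma 3.58.1 (R 4.3.3) was fitted to the 3 NMDA and 3 control arrays, unpaired and two-sided, with Benjamini-Hochberg adjustment over 181 miRNAs. Intervals are limma's 95% intervals, without adjustment. Simulated data with known changes were used to test the fit.

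Same-numbered arrays of the groups deviated together (correlations of 0.37, 0.76 and 0.64 over 157 miRNAs). Numbers were therefore taken to pair arrays in the paired permutation tests and in the replicate block, but not in the main fit. Each such pair also shared a slide, and the labels do not say what a number marks.

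The members and lists were chosen with earlier results of these data known. Named miRNAs are those called or changed by more than 20%, the 5 brightest, let-7b, miR-9 and miR-124, the 2 brightest and 2 most changed of each list, the 3 most different arm pairs and the 3 narrowest intervals. Others are marked in the text. Sequences are from RefSeq (GRCm38.p6); the array headers name another build (mm9), and no coordinates of theirs were used. The alternatives were other scalings, summaries, floors, filters and fits, the authors' log2 table, the methods' t-test, replicate and slide blocks, and leaving out each array. A paired test of the numbers detected per array was added after seeing the data. The mean spot signal was not used here, and normexp was run on the median spot signal.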

Additional observations from a re-analysis of the deposited data

Results flagged for a closer look

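The array also carries 39 miRNAs of mouse herpesviruses, which were outside the comparison. One of them, mcmv-miR-M87-1, gave 5.35%, 8.43% and 12.3% of the scale on the NMDA arrays (mean 8.69% ± 3.48, SD, n = 3) and 0.67% ± 1.59 (SD, n = 3) on the control arrays. Of the NMDA arrays 2 detected it and of the control arrays 0, which is why it is listed here. Groups of 3 arrays are too small for a test of single outlying arrays.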

How the results depend on the processing

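All 15 calls remained with each array left out in turn (15 to 17 calls, 17 to 23 miRNAs raised by more than 20%). The list of tested miRNAs was kept from the full set in these fits, so the filter was not redone. For the 8 calls with all control levels at the floor, leaving out a control array could not move the change. As the groups of the 15 do not overlap, their direction with an array left out was already fixed. Over the 21 alternatives no called change turned its direction, but the sizes moved. The log2 change ranged from 2.39 to 3.54 for miR-689 and from 0.96 to 3.34 for miR-574-5p. It ranged from 0.56 to 2.50 for miR-671-5p and from 0.43 to 1.28 for miR-494. The count of calls was 26 with quantile normalization, 27 with normexp, 5 with the total signal per miRNA, 5 with every mouse miRNA in the fit and 3 among miRNAs on all 6 arrays, where 5 were raised by more than 20% (fewer miRNAs tested). The count lowered by more than 20% was 155 with scaling to all probes, 4 with the median of detected probes, 37 with quantile normalization, 17 with total signal, 1 in the authors' table, 5 with normexp and 3 to 6 with each array left out (6 without control replicate 3, 4 without NMDA replicate 3). The median change was -0.43 with scaling to all probes, -0.048 with the median of detected probes, -0.14 with quantile normalization, 0.047 with no scaling, -0.090 with total signal, -0.053 in the authors' table and -0.10 with normexp, and intervals inside 1.5-fold numbered 1 with scaling to all probes, 0 with total signal and 569 with every mouse miRNA. By signal class, calls were 12, 3, 0 and 0 with classes from the bicuculline arrays. The methods' t-test called 12, without miR-714, miR-705 and miR-1897-5p. With the replicate block limma called 17, adding miR-709 and miR-188-5p, and it changed no other call. No alternative called an arm pair. Apart from construction, the cause of these differences was not tested.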
